A study of Mus musculus with 2 samples.

Results

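Proliferating immune cells of mouse visceral adipose tissue (VAT) were taken as the cells with at least 2 UMIs of Mki67 and at least 2 UMIs of Top2a, a UMI (unique molecular identifier) being 1 counted mRNA molecule. This rule found 491 of the 25198 cells that passed the filters, 270 of 12474 in the library from mice on Normal water (NW) and 221 of 12724 in the library from mice given Antibiotics (ABX). Both groups were C57BL/6 Wildtype mice of 15 weeks, and CD45+ cells were enriched from their VAT, called eWAT in the sample titles, with magnetic beads and profiled by scRNA-seq on the BD Rhapsody platform. The agents in the drinking water of the mice behind the ABX library are not named in its labels, and neither is the number of mice behind each library. With 1 library per condition no test was possible. Each interval below covers counting error only, and a difference between NW and ABX is a difference between these libraries.

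A cell that divides first copies its DNA in S phase and then, in G2 and M phase, condenses its chromosomes, attaches them to the spindle and splits. Mki67 encodes Ki-67, a protein that coats mitotic chromosomes and is absent from resting cells, and Top2a encodes the topoisomerase that untangles the copied DNA strands. In adipose tissue, macrophages and lymphocytes can divide in place, while most short-lived myeloid cells are renewed from bone marrow. Many genes of G2 and M phase are held silent in resting cells by the DREAM complex, which binds the CHR element (TTTGAA or TTCGAA) in their promoters, and the same promoters often carry CCAAT boxes for the factor NF-Y. The promoters of both rule genes, of Cdk1, which encodes the kinase that drives entry into mitosis, and of Mcm5, a subunit of the helicase that opens DNA for copying, are printed to show where these letters stand. The windows are from RefSeq on GRCm38.p6, run 5′ to 3′ on the strand of the gene and end 50 bases into it, and capitals mark both forms of the CHR and the CCAAT box in either orientation.
Mki67 (chr7:135716330-135716629, minus strand): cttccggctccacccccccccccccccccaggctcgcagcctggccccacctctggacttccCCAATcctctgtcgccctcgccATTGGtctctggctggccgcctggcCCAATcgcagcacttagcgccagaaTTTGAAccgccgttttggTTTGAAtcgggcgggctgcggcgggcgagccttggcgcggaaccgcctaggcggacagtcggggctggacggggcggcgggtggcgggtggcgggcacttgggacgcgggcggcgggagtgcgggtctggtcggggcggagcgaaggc
Top2a (chr11:99024140-99024439, minus strand): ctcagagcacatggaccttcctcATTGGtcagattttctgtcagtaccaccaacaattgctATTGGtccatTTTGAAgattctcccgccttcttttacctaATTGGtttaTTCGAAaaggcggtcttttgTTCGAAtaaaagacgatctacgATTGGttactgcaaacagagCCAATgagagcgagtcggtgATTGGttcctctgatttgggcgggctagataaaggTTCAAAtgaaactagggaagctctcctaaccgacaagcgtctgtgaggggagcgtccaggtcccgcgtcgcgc
Cdk1 (chr10:69352863-69353162, minus strand): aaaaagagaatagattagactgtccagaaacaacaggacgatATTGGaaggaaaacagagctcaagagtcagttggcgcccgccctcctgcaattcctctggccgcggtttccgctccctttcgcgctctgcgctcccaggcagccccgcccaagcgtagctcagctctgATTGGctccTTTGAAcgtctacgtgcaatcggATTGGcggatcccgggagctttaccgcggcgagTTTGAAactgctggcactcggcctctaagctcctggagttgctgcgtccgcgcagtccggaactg
Mcm5 (chr8:75109259-75109558, plus strand): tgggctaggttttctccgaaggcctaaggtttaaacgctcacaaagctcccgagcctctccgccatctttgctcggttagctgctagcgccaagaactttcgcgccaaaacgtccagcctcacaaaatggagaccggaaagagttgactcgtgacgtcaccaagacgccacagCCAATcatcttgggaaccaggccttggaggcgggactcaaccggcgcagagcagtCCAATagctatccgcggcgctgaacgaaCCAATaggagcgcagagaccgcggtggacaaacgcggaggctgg

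The Mki67 window held TTTGAA 2 times, at 116 and 98 bases before the gene start, and CCAAT 3 times. The Top2a window held TTTGAA 2 times, TTCGAA 2 times and CCAAT 6 times, and the Cdk1 window TTTGAA 2 times and CCAAT 3 times. The Mcm5 window held CCAAT 3 times and neither form of the CHR. Among all 32851 windows of the table, 19.2% held TTTGAA or TTCGAA on either strand and 7.52% also held CCAAT. Of the 49 windows of the G2/M genes used below, 36 (73.5%) held TTTGAA or TTCGAA and 29 (59.2%) also held CCAAT, while of the 33 windows of the S genes 6 (18.2%) held either CHR form. By function, the motif stood in 12 of 14 windows of spindle genes, 8 of 9 of cytokinesis genes, 9 of 13 of kinetochore genes and 6 of 11 of condensin and chromosome structure genes. Among the genes of DNA copying it stood in 4 of 11 windows of replication licensing, 2 of 15 of the replication fork and 0 of 5 of nucleotide synthesis. A match is a description of the letters and not of a bound site.

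Proliferating cells made up 2.16% of the NW cells (95% interval 1.92 to 2.44) and 1.74% of the ABX cells (1.52 to 1.98). The log10 ratio of ABX over NW was -0.0956, with a counting interval of -0.172 to -0.0191. The NW cells were also the more deeply covered, with a median of 5092 UMIs against 3845.5, and a deeper cell reaches 2 UMIs more easily. With each cell thinned to 2000 UMIs the expected shares were 1.37% of 11133 NW cells and 1.09% of 10569 ABX cells. The order of the libraries was the same at equal depth, with both shares lower.

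The values that chose the cells lay far above the limit in most of them. Among the proliferating cells the median was 14 Mki67 UMIs and 12 Top2a UMIs in each library, with maxima of 75 and 106 in NW and 89 and 119 in ABX. They held 80.4% of all Mki67 UMIs in NW and 77.8% in ABX, and 87.1% and 87.6% of the Top2a UMIs. Just inside the limit, with 1 of the genes at exactly 2 UMIs, lay 23 NW and 29 ABX cells, whose summed G2/M genes had a median of 63.3 and 66.3 per 10000 UMIs. Just outside it lay 26 NW and 26 ABX cells with 1 Top2a UMI and at least 2 of Mki67 (30.2 and 46.8 per 10000) and 16 and 11 cells with 1 Mki67 UMI and at least 2 of Top2a (21.0 and 30.2). All proliferating cells had a median of 133 and 135, and cells with neither gene 12 and 13. The libraries shared 196 cell labels, none of them between a proliferating cell of one and a proliferating cell of the other.

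Each cell was put in a class by marker genes, the C1q class by C1qa, C1qb and C1qc summed to at least 20 per 10000 UMIs and the others by at least 2 UMIs of Cd3e, Cd79a, Xcr1 or Il1rl1. C1q is a complement protein made by tissue macrophages, Cd3e a chain of the T cell receptor complex, and Cd79a a chain of the B cell receptor complex. Xcr1 is the chemokine receptor of type 1 dendritic cells, and Il1rl1 encodes ST2, the IL-33 receptor of group 2 innate lymphoid cells, mast cells and many VAT Treg cells. Proliferating cells were found in every class of both libraries. In NW the C1q class was the most numerous, with 74 cells or 27.4% of the proliferating cells (22.2 to 33.1), followed by the Xcr1 class with 50 cells (18.5%). In ABX the C1q and Xcr1 classes held 36 cells each (16.3%), and the Cd79a class held 43 (19.5%, 14.5 to 25.3) against 31 in NW (11.5%, 7.94 to 15.9). The Cd3e class without Il1rl1 held 7 NW and 21 ABX cells, and cells with both Cd3e and Il1rl1 numbered 12 and 6. The Il1rl1 class without Cd3e held 26 and 20 cells. A further 28 NW and 14 ABX cells had markers of more than 1 class, among them 12 NW cells with C1q and Il1rl1 alone, and 42 and 45 cells had none of the markers.

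**Figure D1:**
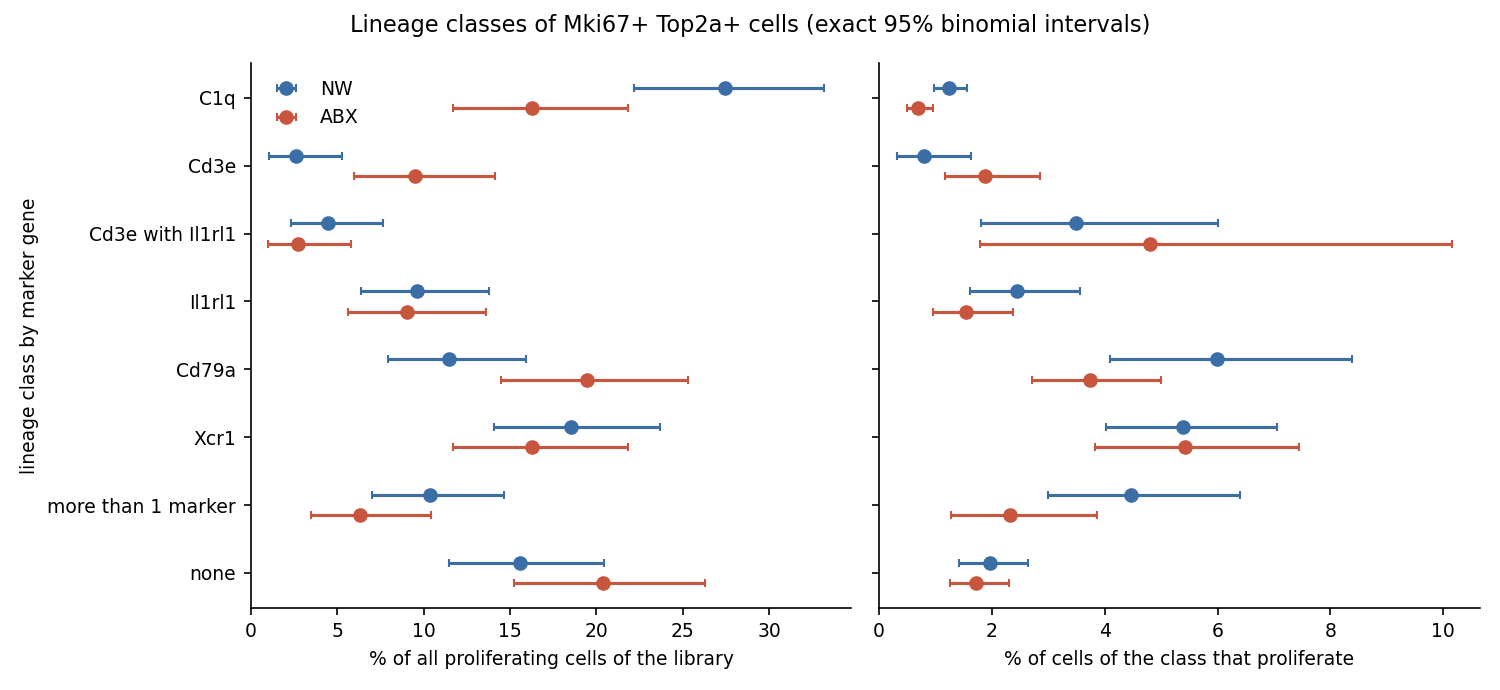
Share of all proliferating cells that each marker class holds (left, %) and share of the cells of each class that proliferate (right, %), in NW (blue) and ABX (red). Points are 1 library each with exact 95% binomial intervals. The Cd79a and Xcr1 classes had shares of 3.73% to 5.98% on the right, and the C1q class, the largest by cells, had 1.24% in NW and 0.697% in ABX.

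Relative to the size of their own class, the Xcr1 and Cd79a cells proliferated most often among the classes with a single marker. In the Xcr1 class 5.39% of 927 NW cells (4.03 to 7.05) and 5.43% of 663 ABX cells (3.83 to 7.44) met the rule, a log10 ratio of 0.00290 (-0.178 to 0.184). The Cd79a class had 5.98% of 518 NW cells (4.10 to 8.39) and 3.73% of 1152 ABX cells (2.71 to 5.0). The C1q class, by far the largest, had 1.24% of 5975 NW cells (0.974 to 1.55) and 0.697% of 5166 ABX cells (0.489 to 0.963). Its order between the libraries held at 2000 UMIs, 0.75% against 0.521%, but the interval of the thinned log10 ratio included 0 (-0.158, -0.382 to 0.0655). The Cd3e class went the other way, with 0.797% of 878 NW cells (0.321 to 1.64) and 1.88% of 1117 ABX cells (1.17 to 2.86). Its log10 ratio of 0.373 had an interval from 0.00306 to 0.742, which included 0 after thinning (0.236, -0.249 to 0.722). With lineage markers set at 1 UMI in place of 2, the class held 8 NW and 11 ABX proliferating cells, and the shares were 0.834% and 0.846%, so the difference depends on the marker limit. For the Cd79a class the log10 ratio was -0.205 (-0.400 to -0.00958) and -0.330 (-0.583 to -0.0775) after thinning, so that a larger class in ABX came with a smaller proliferating share. The shares of the Il1rl1 class, 2.45% and 1.55%, and of the cells with Cd3e and Il1rl1, 3.49% and 4.8%, had ratios whose intervals included 0.

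Proliferating cells held more UMIs than the other cells of their class in each class and library. The ratio of the medians ran from 1.33 in the NW C1q class (7431.5 against 5573 UMIs) to 2.99 in the ABX cells without a marker (8209 against 2745). Because the rule selects deeper cells, gene levels are given below as UMIs per 1000000 UMIs of the summed cells (CPM). Whether depth has a part in the shares beyond the thinning was not tested. Scrublet, which scores doublets, marked 3 of the proliferating cells in NW and 4 in ABX at the threshold it set in NW.

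The position of the cells in the cycle was read from sums of 42 S genes and 50 G2/M genes, lists that hold neither rule gene. The G2/M sum lay above the 99th percentile of the other cells of the library in 256 of 270 NW cells and 201 of 221 ABX cells. The S sum lay above its percentile in 128 NW cells (47.4%) and 119 ABX cells (53.8%). Both sums were high in 123 NW cells (45.6%) and 109 ABX cells (49.3%), G2/M alone in 133 (49.3%) and 92 (41.6%), and S alone in 5 and 10. The rule asks for 2 genes that peak in G2 and M phase, so cells in early S phase are under-represented by its construction. The classes differed in their S genes. The median S sum was 17.4 per 10000 in the NW C1q class and 20.3 in the Xcr1 class, and 61.8 in the Cd79a class. In ABX the same medians were 26.3, 28.1 and 41.1, the same order among these classes with a smaller gap. The order did not hold over all classes, since the Cd3e class had 70.2 in NW (7 cells) and 23.8 in ABX (21 cells). The Cd79a class also held cells of unlike kinds in the libraries, as given below.

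**Figure D2:**
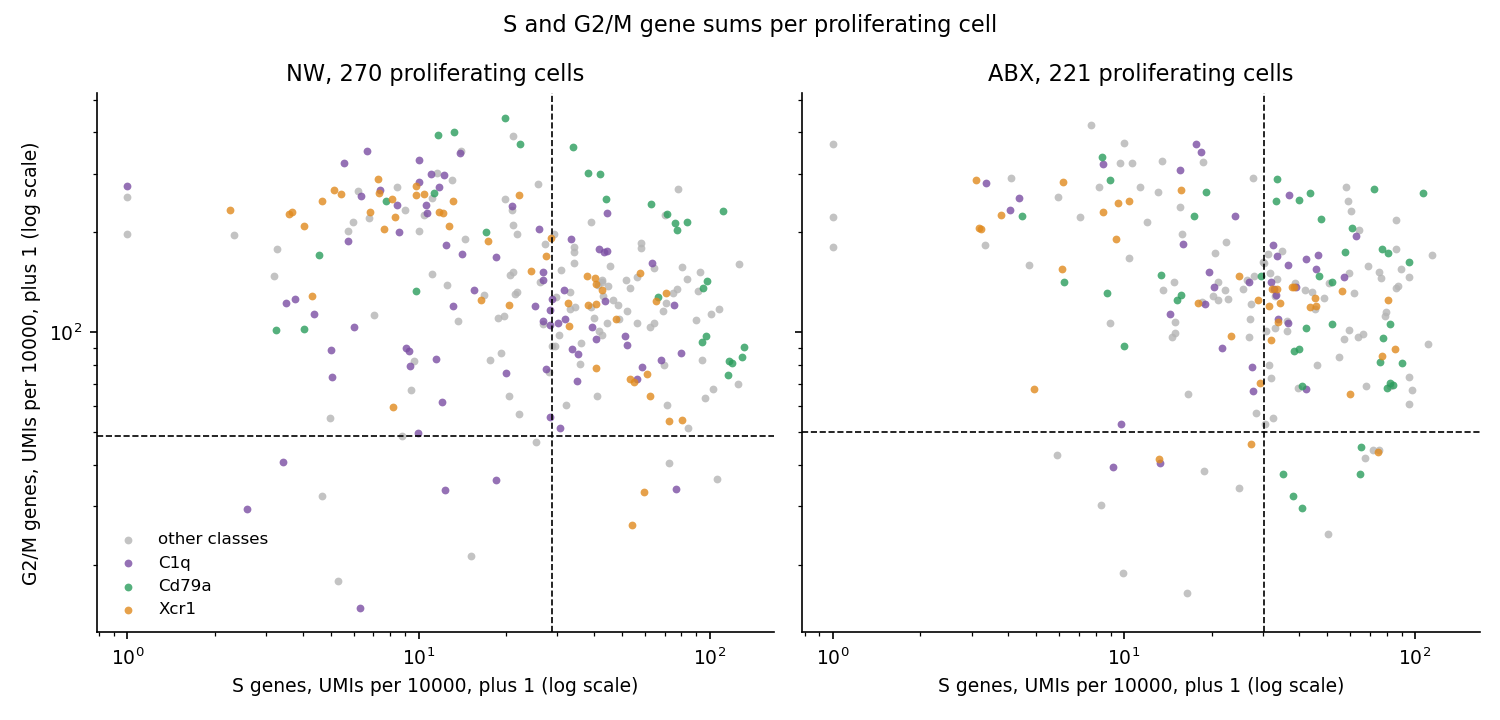
Sum of S genes against sum of G2/M genes in each proliferating cell, both in UMIs per 10000 plus 1 on log scales, for NW (left, 270 cells) and ABX (right, 221 cells). Dashed lines mark the 99th percentile of the other cells of the library. Of the cells, 256 in NW and 201 in ABX lie above the G2/M line.

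Proliferating cells carried the genes of DNA copying and mitosis at higher levels when they were compared with all other cells of their library, as a description of cells chosen by 2 of its genes. A gene is called higher or lower here where its CPM ratio was at least 1.5-fold in the same direction in both libraries. Over all 11939 genes compared, 10.6% were higher and 16.7% were lower. Genes nearly absent from other cells could pass the limit of 100 UMIs only through the proliferating cells, so the list counts show which genes were measured and support nothing further. All 15 genes of replication licensing were higher, with a median log2 ratio of 2.58 in NW and 2.69 in ABX. Mcm5 stood at 172 CPM in NW proliferating cells and 12.5 in other cells, and at 180 and 13.8 in ABX. All 16 replication fork genes were higher, from Pcna, the sliding clamp, with log2 ratios of 1.63 (1.52 to 1.74) and 1.8 (1.69 to 1.91), to Clspn, the fork checkpoint mediator, with 6.11 and 6.12. The ribonucleotide reductase subunit Rrm2, which makes the DNA building blocks, had 6.52 and 6.67, and Uhrf1, which keeps DNA methylation through copying, 5.73 and 5.70.

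The genes of mitosis showed the larger ratios. Among the cyclins and their kinases the median log2 ratio was 5.10 and 4.8. Ccna2, the S and G2 cyclin, had 446 against 2.55 CPM in NW and 415 against 2.67 in ABX, and a UMI in 84.1% of the proliferating cells. Cdk1 had a UMI in 79.8% of them and log2 ratios of 6.07 and 6.15. The 15 mitotic kinase and checkpoint genes had medians of 5.91 and 5.95, Aurkb, the kinase that corrects chromosome attachment, among them with 5.91 and 5.95. The 13 kinetochore genes, which tie chromosomes to the spindle, had medians of 6.28 and 5.92, and the 17 spindle genes 6.84 and 6.44. Hmgb2, which encodes a DNA-bending protein and was also present in other cells, reached 2216 and 2207 CPM against 150 and 179. One gene of the anaphase promoting complex list stood apart, since Pttg1, the securin that guards sister chromatids, had log2 ratios of -0.03 (-0.28 to 0.21) and -0.64 (-0.94 to -0.35). Beyond the lists, the genes with the largest ratios were Ankle1, Pclaf, Pimreg, Troap and Ska1, of which Pclaf, a partner of PCNA, had 7.54 and 7.47.

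Other regulators were split. Of 12 cell cycle transcription factors 10 were higher, among them Foxm1 and Mybl2, which switch on mitotic genes, with log2 ratios of 5.50 and 5.22 and of 5.36 and 5.05. Myc had 0.21 (-0.04 to 0.45) and 0.83 (0.64 to 1.02) and missed the limit in NW. The D cyclins, which start the cycle, were not called, with Ccnd1 at -0.08 and 0.25, Ccnd2 at -0.42 and 0.20, and Ccnd3 at 0.77 and 0.46, while Cdk4, their kinase, was higher at 0.91 and 1.12. Among the inhibitors of cyclin-dependent kinases, Cdkn2c and Cdkn2d were higher (3.03 and 2.74, and 2.54 and 1.94), Cdkn1b was not called (0.40 and 0.01), and Cdkn1c was lower (-0.95 and -1.55). Cdkn1a, the p21 inhibitor, had 0.78 (0.62 to 0.94) in NW and -0.90 (-1.20 to -0.62) in ABX, opposite directions in the libraries. Of 11 genes tied to quiescence none was higher and 5 were lower, with Txnip at -1.50 and -2.07. All 9 immediate early and heat shock genes that tissue dissociation induces were lower, Fos at -1.24 and -2.12 and Egr1 at -1.58 and -2.57. All these ratios pool the classes, whose weights differ. The C1q class supplied 27.4% (NW) and 16.3% (ABX) of the proliferating cells, against 47.9% and 40.6% of all cells. Among the NW cells that missed the rule, Fos stood at 2785 CPM in the C1q class and 514 in the Cd3e class. Among the cells without a marker alone, fewer dissociation genes were lower, as given below. The part of class makeup in the pooled ratios was not tested.

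**Figure D3:**
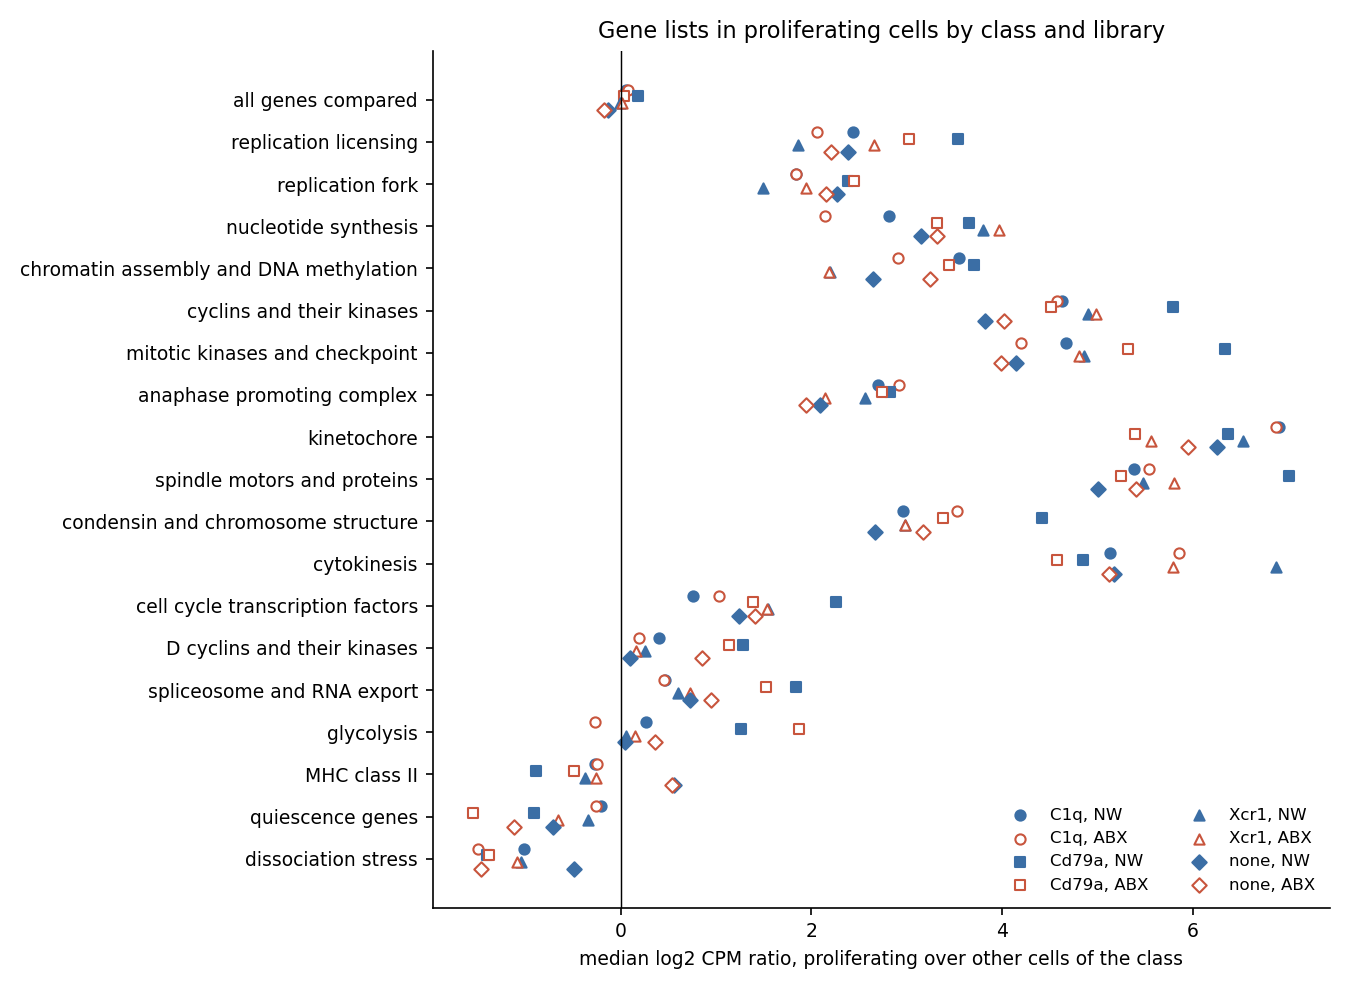
Median log2 CPM ratio of proliferating over other cells of the same class for each gene list (rows), over the genes of the list that passed the limit of 100 UMIs. Filled symbols are NW and open symbols ABX, with a shape for each class. Mitotic lists lie to the right in each class, and glycolysis lies above 1 in the Cd79a class only, with medians of 1.26 and 1.88.

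Within the C1q class, most proliferating cells held UMIs of Csf1r and Mrc1, and most genes of the resident scavenger program stood lower in them. Against the 9836 genes compared in the class, 10.9% were higher and 6.02% were lower. None of the 8 macrophage genes was called, but C1qa, C1qb and C1qc among them chose the class, so their presence was fixed. Each of these stood lower in the proliferating cells. C1qb had 2984 against 4536 CPM in NW and 2782 against 3925 in ABX, and C1qc 3176 against 5120 and 3826 against 4676. Csf1r, the receptor for the growth factor of macrophages, had at least 2 UMIs in 69 of 74 NW and 34 of 36 ABX cells, and Mrc1, the mannose receptor, in 60 and 26. In the Cd3e class, which should lack it, Mrc1 had 2 UMIs in 2.87% and 1.09% of the cells that missed the rule, at medians of 3513 and 3306.5 UMIs. Of 9 resident macrophage genes 7 were lower. Lyve1, the hyaluronan receptor of perivascular macrophages, stood at 221 against 1451 CPM in NW and 77.7 against 835 in ABX, log2 ratios of -2.71 (-2.97 to -2.47) and -3.43 (-4.23 to -2.73). Folr2, a folate receptor, had -1.78 and -3.00, Cd209f, a lectin, -2.06 and -2.89, and Fcna, a ficolin, -2.39 and -2.07. Cd163, the haemoglobin scavenger receptor, had -1.01 and -0.23 and was not called. The gene of the alternative activation protein Retnla was also far lower, 1104 against 10893 CPM in NW and 311 against 6669 in ABX. Ednrb, an endothelin receptor, had -2.49 (-2.83 to -2.17) and -3.84 (-5.16 to -2.80), and Klf4, a factor that restrains division, -1.66 and -2.51. Among the genes highest beyond the lists were Knstrn, Trim59, Lmnb1 and Pkmyt1, of which Knstrn acts at kinetochores.

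Over all proliferating cells, 5.2% of 7170 genes compared were higher in ABX than in NW and 8.7% were lower. In the proliferating C1q cells, 3.51% of 1425 genes compared were higher in ABX and 9.33% were lower. Lpl, the lipase that releases fatty acids from lipoproteins, had 471 UMIs in the 74 NW cells and 19 in the 36 ABX cells, a log2 ratio of -3.11 (-3.85 to -2.45) against -0.53 in the other C1q cells. It had a UMI in 44 NW and 10 ABX cells, and without the NW cell that held most of it the ratio was -2.68. Trem2, a lipid receptor, had -1.36 (-2.09 to -0.70) against -0.01 in other cells. Folr2 had -1.91 (-2.54 to -1.34) against -0.69, and Cd209f -2.05 (-3.21 to -1.07) against -1.22. Both genes were thus also lower in ABX in the other C1q cells, but by less. The interval of Cd209f held the ratio of those cells, and that of Folr2 did not. The chemokine genes Ccl8 and Cxcl2 had -3.43 and -2.39. Cd163 was higher in ABX, at 0.79 (0.60 to 0.98) against 0.01. The lowest ratio, -4.21 for Acta2, rested on 1 NW cell that held 156 of its 160 UMIs. Pkmyt1, which holds Cdk1 inactive, was the highest at 1.45 (80 UMIs in NW and 76 in ABX), followed by Ddit4 and Cd86 at 1.30 each.

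**Figure D4:**
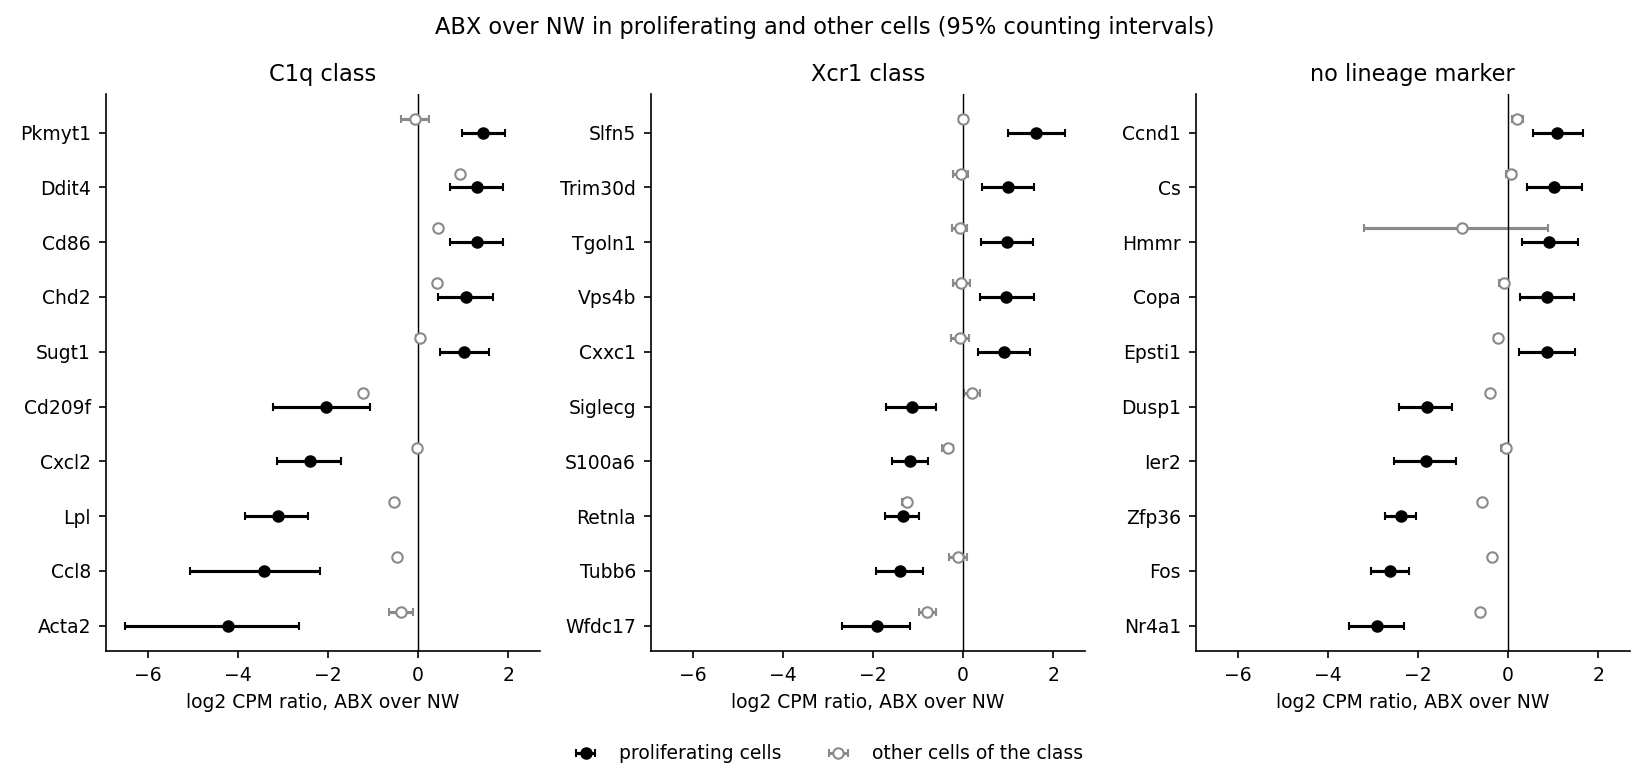
Log2 CPM ratio of ABX over NW for the 5 highest and 5 lowest genes named in the C1q class, the Xcr1 class and the cells without a lineage marker. Black points are proliferating cells and open grey points other cells of the class, with 95% counting intervals. Nr4a1 and Fos in the cells without a marker lie at -2.90 and -2.62, Acta2 rests on 1 cell, and Wfdc17 and Retnla in the Xcr1 class stand near background levels.

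Xcr1 cells that proliferated kept the genes of type 1 dendritic cells. Naaa had at least 2 UMIs in 50 of 50 NW and 36 of 36 ABX cells, Clec9a, the receptor for dead cells, in 42 and 31, and Irf8, the factor that sets this lineage, in 41 and 32. In the C1q class, Clec9a reached 2 UMIs in none of the 74 and 36 proliferating cells. Of 6 genes of the list 1 was lower and none higher, against 8.02% higher and 5.26% lower over 6483 genes. The lower one was Itgae, an integrin of mature type 1 dendritic cells, at -0.62 and -1.73. Kit, a growth factor receptor of progenitors, had 2 UMIs in 50% of the proliferating cells of each library and in 34.4% and 32.2% of the others, and Plac8 in 42% and 52.8% against 20.3% and 16.9%. The proliferating cells were also deeper, with medians of 14070 and 14754 UMIs against 9366 and 8498. Trib1, Skint3, Bst1, Nacc2 and Bcl2a1b were the lowest beyond the lists, Trib1 at -2.20 (-2.96 to -1.53) and -2.23 (-3.36 to -1.29). Pclaf, Prr11, Dbf4 and Tuba1b were among the highest, Dbf4, the partner of the kinase that fires replication origins, at 4.30 and 4.31.

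Between ABX and NW the proliferating Xcr1 cells differed in few genes, 2.05% higher and 3.14% lower of 2199. Wfdc17 and Retnla, both abundant in the C1q class, had ratios of -1.90 (-2.70 to -1.18) and -1.34 (-1.73 to -0.97) at levels near the background in these cells. Retnla in the other Xcr1 cells stood at 3.74% of its CPM in the other C1q cells in NW and at 2.56% in ABX, and in the Cd3e class, which should lack it, at 4.18% and 4.22%. C1qc, the macrophage gene itself, stood at 3.47% and 2.88% in the Xcr1 class. Wfdc17 stood at 9.05% and 8.20% in the Xcr1 class and at 8.20% and 6.92% in the Cd3e class. These ratios are therefore not read as expression by Xcr1 cells. Tubb6, S100a6 and Siglecg had -1.40, -1.18 and -1.15. The highest, Slfn5 at 1.62, fell to 0.09 without 1 ABX cell that held 49 of its 75 UMIs. None of the 7 MHC class II genes and none of 8 glycolysis genes compared was called in these cells.

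The proliferating cells of the Cd79a class were split by B cell precursor genes, Jchain and Ms4a1, at limits set after the values were seen. The precursor genes were Vpreb1, Vpreb2 and Igll1, of the surrogate light chain, Rag1 and Rag2, which cut receptor gene segments, and Vpreb3 and Dntt. Cells with at least 8 UMIs of these and fewer than 10 of Jchain made up 24 of 31 in NW (77.4%, 58.9 to 90.4) and 6 of 43 in ABX (14%, 5.30 to 27.9). Jchain joins the units of secreted IgM and IgA, and cells with at least 10 UMIs of it numbered 2 in NW (6.45%) and 20 in ABX (46.5%, 31.2 to 62.3). Ms4a1 encodes CD20 of mature B cells, and cells with at least 10 UMIs of it but below the other limits numbered 2 and 14 (32.6%, 19.1 to 48.5). The remaining 3 cells of each library met no limit. The counts depend on the limits. At 2 UMIs, 24 of 31 cells in NW (77.4%) and 13 of 43 in ABX (30.2%, 17.2 to 46.1) had precursor genes, and at least 2 UMIs over Jchain, Sdc1, Mzb1, Xbp1 and Iglv1, a list of plasma cell genes, stood in 27 and 41. All 13 ABX cells with precursor genes, and 20 of the 24 in NW, then also had plasma cell genes, so that the lower limit did not separate the kinds. Among the ABX Jchain and Ms4a1 cells, 2 and 5 had 2 UMIs of Vpreb3, and none had 2 of another precursor gene. At the higher limits, of the cells with precursor genes 24 of 53 in NW (45.3%, 31.6 to 59.6) and 6 of 24 in ABX (25%, 9.77 to 46.7) proliferated. Of the Jchain cells, 2 of 132 (1.52%, 0.184 to 5.37) and 20 of 211 (9.48%, 5.89 to 14.3) did, and of the Ms4a1 cells 2 of 100 (2.0%) and 14 of 294 (4.76%). At 2 UMIs, 20 of 57 NW (35.1%) and 13 of 74 ABX cells (17.6%) with both sets proliferated, 4 of 33 and 0 of 69 with precursor genes alone, and 7 of 299 (2.34%) and 28 of 663 (4.22%) with plasma cell genes alone. At the higher limits, proliferating precursor cells had medians of 10019.5 (NW) and 8883 UMIs (ABX) against 4841 and 3665 in the others. For Jchain cells these were 19537.5 and 25308.5 against 13816.5 and 11339, and for Ms4a1 cells 17653.5 and 11863 against 6949 and 6386.5. A shallower cell reaches a limit less easily, and the part of depth in these shares was not tested.

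**Figure D5:**
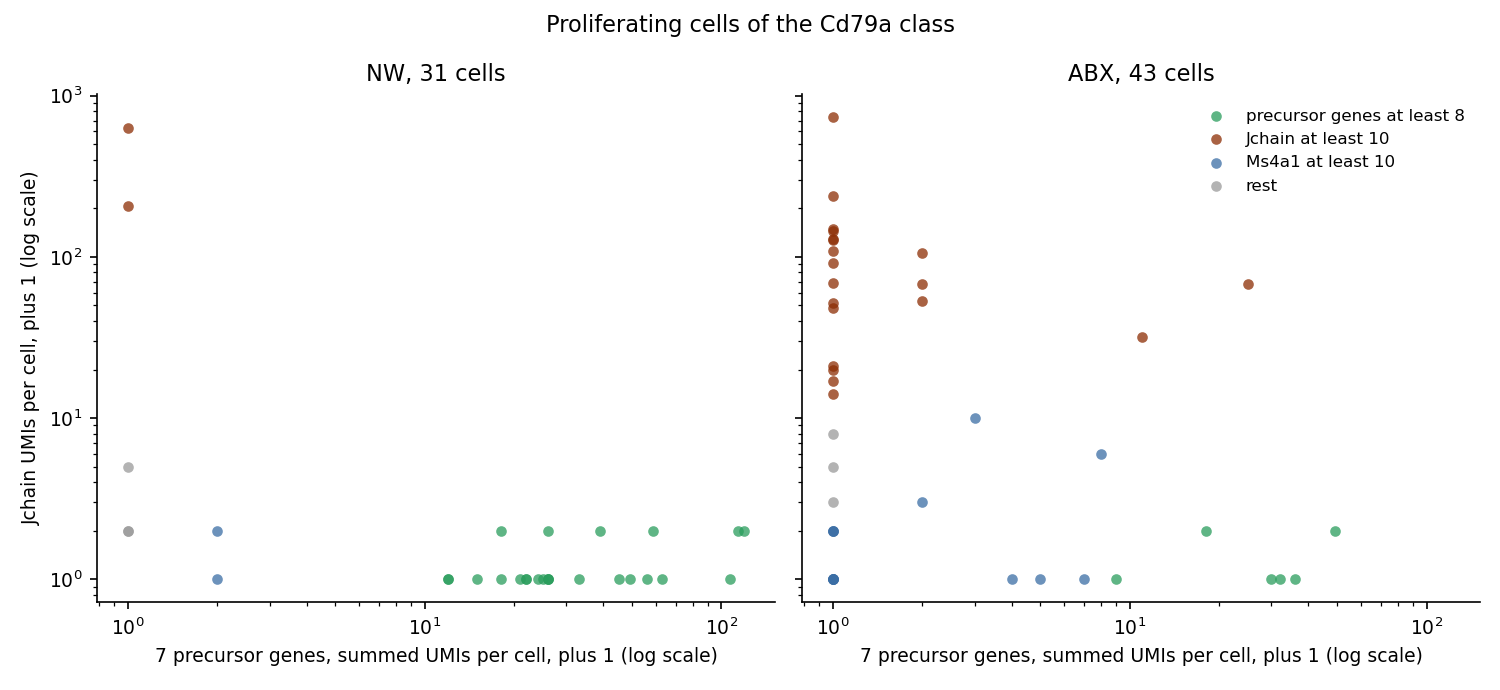
Summed UMIs of 7 precursor genes against Jchain UMIs in each proliferating cell of the Cd79a class, both plus 1 on log scales, for NW (left, 31 cells) and ABX (right, 43 cells). Colours give the split. In NW 24 cells lie to the right at low Jchain, and in ABX 20 lie at 10 or more Jchain UMIs.

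The 24 NW cells of the precursor kind had between 9 and 48 Vpreb3 UMIs with a median of 20.5, and no cell had 2 Jchain UMIs. Vpreb1 had 2 UMIs in 11 of them, Rag1 in 7, Il7r, the receptor for the growth factor IL-7, in 22, and Myb, a factor of dividing precursors, in 22. The 6 ABX cells of this kind had 8 to 34 Vpreb3 UMIs, 5 with Myb and 4 with Il7r. In the C1q class Vpreb3 reached 2 UMIs in 1 of 5901 NW cells that missed the rule and in none of 5130 in ABX. The 20 ABX Jchain cells had 13 to 739 Jchain UMIs with a median of 67.5, and a median of 878.5 UMIs of Ighm, the IgM heavy chain. All 20 had at least 2 UMIs of Mzb1 and of Xbp1, which serve antibody secretion, 12 of Prdm1 and 9 of Sdc1, and 10 still had 2 of Ms4a1. Of these 20 cells, 2 also reached the limit of the precursor genes. Jchain reached 10 UMIs in none of the 211 NW and 164 ABX proliferating cells of the other classes, leaving out cells with more than 1 marker, of which 2 of 28 and 6 of 14 did. The Jchain cells were large, with a median of 25308.5 UMIs in ABX.

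Over the whole Cd79a class, 16.3% of 5029 genes were higher and 10.4% lower in proliferating cells. Of 9 glycolysis genes 7 were higher, Ldha at 1.48 (1.09 to 1.85) and 1.97 (1.77 to 2.17) and Gapdh at 1.56 and 2.11, and 7 of 8 genes of ribosome making were higher. Of 11 quiescence genes 7 were lower, Klf2 at -0.90 and -2.40. Igha, the IgA heavy chain, stood at 10.1 against 1175 CPM in NW and at 4.73 against 501 in ABX, log2 ratios of -6.87 and -6.73. The proliferating cells held 4 Igha UMIs in each library and the others 4045 and 3165, so Igha passed the UMI limit through the others. Whether a few of the other cells held most of these UMIs was not tested. Between the libraries, 15.5% of 2168 genes were higher in ABX and 15.3% lower, more than in the other classes compared, with 31 and 43 cells of unlike makeup summed. Vpreb1, Igll1 and Vpreb3 were lower in ABX, at -3.62, -3.39 and -2.80, and Il7r had -2.55 (-3.03 to -2.09). Ccnd3, the cyclin that precursor B cells depend on, had -1.30 (-1.65 to -0.96) against -0.12 in the other cells. Mzb1 and Xbp1 were higher at 1.48 (1.29 to 1.67) and 1.54 (1.27 to 1.82), and Myc at 1.94 (1.16 to 2.82). All 5 MHC class II genes compared and 7 of 8 glycolysis genes were higher, Aldoa at 2.04 (1.49 to 2.63) against 0.13. The heavy chain gene Ighg3 had 10 UMIs in NW and 1344 in ABX, of which 1 cell held 1308. Without that cell its ratio fell from 5.98 to 0.76. Of the 10 genes with the highest and lowest ratios in this class, 4 were left with 3 or fewer UMIs in each library without their top cell, the variable segments Igkv4-57-1, Igkv12-98, Igkv15-103 and Ighv3-6.

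The Il1rl1 class without Cd3e also held distinct cells. Cd209a, a lectin of type 2 dendritic cells, had at least 2 UMIs in 13 of 26 NW and 8 of 20 ABX proliferating cells, and Gata3, the factor of group 2 innate lymphoid cells, in 10 and 7. No proliferating cell had both. Among the other cells of the class Gata3 was the common one, in 66.9% and 68.4%, and Cd209a was found in 9.64% and 3.77%. In the Cd3e class, which should lack Cd209a, 1.95% and 2.01% of the cells that missed the rule had 2 UMIs of it. Of the cells with Cd209a and no Gata3, 13 of 101 in NW (12.9%, 7.04 to 21.0) and 8 of 52 in ABX (15.4%, 6.88 to 28.1) proliferated. With Gata3 and no Cd209a, it was 10 of 692 (1.45%, 0.695 to 2.64) and 7 of 873 (0.802%, 0.323 to 1.65). Proliferating cells of the class were deeper, with medians of 8604.5 (NW) and 6075 UMIs (ABX) against 3910 and 3444.5, and a deeper cell reaches 2 UMIs of either gene more easily. The difference between the kinds was not tested.

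The Cd3e class held 2.59% of the proliferating cells in NW and 9.50% in ABX, against 7.04% and 8.78% of all cells. Cells with Cd3e and Il1rl1 made up 4.44% and 2.71% of the proliferating cells, against 2.76% and 0.982% of all cells. Of the 7 NW and 21 ABX cells of the Cd3e class, 6 and 20 had 2 UMIs of Trac, the constant chain of the alpha receptor, 5 and 11 had Cd4, and 1 and 4 had Cd8a or Cd8b1. Foxp3, the factor of Treg cells, was found in 0 of 7, for which the exact interval reaches up to 41.0%, and in 5 of 21, against 4.94% and 3.38% of the other cells of the class. Foxp3 reached 2 UMIs in none of the proliferating C1q cells and in 3 of 5901 and 3 of 5130 others of that class. Of the cells with Cd3e and Il1rl1, 7 of 12 in NW and 1 of 6 in ABX had Foxp3, against 49.4% and 31.1% of the others, and 12 and 4 had Gata3. Proliferating cells of the Cd3e class were deeper, with medians of 10158 (NW) and 7721 UMIs (ABX) against 3513 and 3306.5. With Cd3e and Il1rl1 the medians were 9280 and 8026.5 against 4183 and 3655. A deeper cell reaches 2 UMIs of Foxp3 more easily, and the differences in Foxp3 were not tested. In the proliferating Cd3e class the antibodies against CD4 gave a median of 61 UMIs (NW) and of 57 (ABX), against 4 and 2 in the others.

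Of the 42 NW and 45 ABX cells with no marker, 40 and 33 had at least 2 UMIs summed over 7 dendritic cell genes. So had 50.7% and 38.1% of the others without a marker, at medians of 3323.5 and 2745 UMIs against 7226 and 8209 in the proliferating cells. Single genes such as these stood in fewer. Flt3, the receptor that drives dendritic cell growth, had 2 UMIs in 18 and 19 proliferating cells, Clec9a in 13 and 13, Kit in 12 and 9, and Cd209a in 7 and 7. In the C1q cells that missed the rule Flt3 reached 2 UMIs in 0.508% and 0.331%, at medians of 5573 and 4023 UMIs. Genes of T cells were found in 3 and 7. Over the 8691 genes compared, 17.1% were lower and 6.82% higher. Genes of mature dendritic cells, neutrophils, endothelial cells and fibroblasts passed the limit of 100 UMIs through the other cells, so their direction was fixed and is not counted. The summed endothelial genes stood at 44.4 CPM against 1306 in NW and at 38.6 against 3208 in ABX, with UMIs of 2 and 3 of 5 genes. The part of such cells in each ratio was not tested.

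Between the libraries, the proliferating cells without a marker had 2.25% of 1157 genes higher in ABX and 3.63% lower. All 7 dissociation genes compared were lower, with a median of -1.57 against -0.37 in the other cells. Fos had 314 UMIs in NW and 55 in ABX, -2.62 (-3.06 to -2.20) against -0.37, and Nr4a1, Zfp36, Ier2 and Dusp1 had -2.90, -2.39, -1.82 and -1.81. These are immediate early genes that cells switch on within minutes of handling, and the handling of the libraries was not compared. In the proliferating C1q cells 3 of 8 such genes were lower, against 9.33% of all genes compared there, in the Xcr1 cells 1 of 8 against 3.14%, and in the Cd79a cells 0 of 5 against 15.3%. Ccnd1 was the highest at 1.09 (0.55 to 1.66).

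On the surface, the antibody against CD44, an adhesion receptor that rises on activated cells, gave more UMIs on proliferating cells in most classes. In the Il1rl1 class the medians were 452 against 177 UMIs in NW and 335.5 against 152 in ABX, in the Xcr1 class 353.5 against 236 and 308.5 against 226, and in the C1q class 110 against 60 and 110 against 54. The NW Cd79a class was an exception, with 70 against 73. The antibody against CD25, a chain of the IL-2 receptor, was lower in the Il1rl1 class, 16 against 29 and 21.5 against 38. Antibody UMIs were not scaled, and proliferating cells held more mRNA UMIs in each of these classes. The Il1rl1 class also held unlike cells, as given above. Cd209a was found in 50% (NW) and 40% (ABX) of its proliferating cells, against 9.64% and 3.77% of the others. Gata3 was found in 38.5% and 35%, against 66.9% and 68.4%. The part of this makeup in the CD44 and CD25 values of the class was not tested.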

How the data were processed

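VAT CD45+ cells of 1 NW and 1 ABX library were analysed. The authors deposited UMI counts of each gene and antibody per cell barcode, made with the BD Rhapsody WTA pipeline on GRCm38 (mm10 in the submitters' notes) and not normalized. The NW library held 17662 barcodes and the ABX library 17785. Cells with at least 500 gene UMIs, at least 200 genes and at most 25% mitochondrial UMIs were kept, as in the study, with medians of 5092 and 3845.5 UMIs. Median gene numbers were 2045 and 1717. The gene tables were joined to 26981 genes.

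The 95% interval of a share is exact (Clopper-Pearson). Shares of the libraries were compared as log10 of ABX divided by NW. Gene levels are UMIs per 1000000 UMIs of the summed cells, with exact intervals of a ratio of Poisson rates and a floor of 3 counts at 0. Genes with at least 100 UMIs were compared, in each library for proliferating against other cells and over both libraries for ABX against NW, in classes with at least 30 proliferating cells in each library. Thinning to 2000 UMIs used the hypergeometric expectation and left out shallower cells, 620 NW and 870 ABX cells in the C1q class. Named genes are the rule and lineage genes, genes of fixed lists and the 5 highest and 5 lowest ratios per comparison, within a class by the smaller of the 2 libraries' sizes, and 1 gene that this rule names is not reported here. The rule, the lists and the tests were chosen with earlier results of these data known. The limits of the Cd79a split, the genes summed in cells without a marker, and genes named outside the rule were chosen after their values were seen. Doublets were kept. Reads of near-identical genes, such as immunoglobulin segments, cannot be assigned with certainty. Scripts ran in Python 3.11.15 with numpy 2.4.6, scipy 1.17.1, pandas 2.3.3 and scanpy 1.11.5 (Scrublet), and were tested on simulated data. Lower and higher thresholds, other filters, scalings and doublet removal were tried as alternatives.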

Additional observations from a re-analysis of the deposited data

Results flagged for a closer look

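Barcodes that the filters removed also held cells with at least 2 UMIs of Mki67 and of Top2a. They were 16 of 5188 removed barcodes in NW (0.308%, 95% interval 0.176 to 0.50) and 6 of 5061 in ABX (0.119%, 0.0435 to 0.258), above the 0.0578% and 0.0593% that 3 counts would give. Their medians were 2746.5 and 2048 UMIs, with 31.1% and 34.6% of these from mitochondrial genes.

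The share of proliferating cells moved in opposite directions between the libraries in different classes. Its log10 ratio of ABX over NW was 0.373 in the Cd3e class, from 7 and 21 cells, and 0.00618 with lineage markers at 1 UMI, and -0.250 in the C1q class and -0.205 in the Cd79a class. The difference between the classes was not tested. At 2000 UMIs per cell the ratios were 0.236, -0.158 and -0.330, with intervals that included 0 in the Cd3e and C1q classes.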

How the results depend on the processing

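No paired analysis was possible because each condition had 1 library, and for the same reason no replicate could be left out. Of 336 alternatives to counts and shares, 313 stayed within the counting interval or within 1.5 times the count, and 23 moved. The log10 ratio of the share of proliferating cells ran from -0.129 to -0.0380 over 8 alternatives, and that of the class share from -0.276 to -0.138 in the C1q class, from 0.00618 (lineage markers at 1 UMI) to 0.437 in the Cd3e class, from -0.330 to -0.0531 in the Cd79a class and from -0.0540 to 0.0395 in the Xcr1 class. With at least 30 UMIs in place of 100, more genes were tested and called. Then 2125, 1455, 937 and 986 genes were higher in proliferating cells of the C1q, Cd79a and Xcr1 classes and of the cells without a marker, and 953 and 621 were lower in the Cd79a and Xcr1 classes. Between ABX and NW, 470 were higher and 739 lower in the C1q class, 1021 and 1129 in the Cd79a class, 465 and 514 in the Xcr1 class, 415 and 430 in the cells without a marker, and 790 and 1222 over all. Cell cycle list genes called higher rose to 120, 116 and 119 in the Cd79a and Xcr1 classes and the cells without a marker. With cells weighted equally, 70 genes were higher in ABX in the Xcr1 class, and 52 higher and 76 lower in the cells without a marker. The cause was not tested. Of 9 dissociation genes in the cells without a marker, 2 were lower in proliferating than in other cells, and 1 with scaling by the median of ratios. The median of all genes differed from 0 by over 0.1 on the log2 scale in the Cd79a class of NW (0.18), in the cells without a marker (-0.13 and -0.18) and over all ABX cells (-0.12). Scrublet marked 1 cell (0.00786%) in ABX at its own threshold, which was not usable, so the NW threshold (344 and 324 cells) was applied to both libraries, a choice made after seeing the data. So was leaving out the cell with most UMIs of a gene, which turned Acta2 in the C1q class to 1.11. Of the 10 genes named per class for ABX over NW, 9 in the C1q class, 6 in the Cd79a class, 8 in the Xcr1 class and 9 in the cells without a marker stayed past 1.5-fold. Of 1407 alternatives to single genes and list medians, 1332 gave the same result, 74 moved and 1 changed sign. Depth limits the classes with few cells, such as the Cd3e class of NW, where 7 cells gave a share of 0.797% with an interval from 0.321 to 1.64.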

Other observations

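Of 15 growth factor receptor genes, 14 were measured in the cells without a marker, 10 of them lower and 2 higher in proliferating cells, against 17.1% lower and 6.82% higher over all genes of that class. In the Cd79a class 4 of 8 were lower and 1 was higher, against 10.4% and 16.3%. The cells without a marker were mixed. Genes of T cells were found in 26.5% (NW) and 33.5% (ABX) of the others, against 7.14% and 15.6% of the proliferating ones. A receptor gene of cell kinds rare among the proliferating cells could pass the UMI limit through the others alone. The part of such cells in the receptor counts was not tested. Of 9 genes of the spliceosome and RNA export, 9 were higher in the proliferating cells of the Cd79a class, 7 in the cells without a marker, 4 in the Xcr1 class and 2 in the C1q class. Over all genes of these classes 16.3%, 6.82%, 8.02% and 10.9% were higher.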
